A study of Mus musculus with 48 samples.

Results

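The 44 genes described here carry a cell from rest into DNA replication and through division. They were taken as a list of gene symbols, matched to the identifiers of the count files, and are 44 of the 55416 genes counted in each liver. They comprise 1 G1 cyclin, 17 S phase genes and 26 mitosis genes. The choice used no measured value of the livers, although earlier results of the same data were known when the list was drawn up.

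RNA came from whole livers of 48 mice labelled C57Bl/6J (the knockout line had been backcrossed to C57BL/6 from a mixed background), all kept on a western diet containing 0.2% cholesterol for 8 weeks, from 8 to 16 weeks of age. The mice belonged to 2 lines that carry an altered liver X receptor alpha (LXRα, encoded by Nr1h3), a nuclear receptor that responds to oxysterols and switches on genes of cholesterol export and lipid synthesis. In the knock-in line (DN), the W441R allele encodes a receptor that was described as dominant negative. DN:WT mice carried no such allele, DN:HET mice 1 copy and DN:HOM mice 2 copies, and the labels give 8 livers for each genotype. In the knockout line (KO) the gene is disrupted, and the groups KO:WT (no knockout allele), KO:HET (1 copy) and KO:HOM (2 copies) also had 8 livers each. The knock-in mice were males of a line derived from an F0 founder made by genome editing, and both lines were bred from heterozygous parents. Some knock-in mice of the diet cohort were killed before the planned age, and the study states that the sequenced RNA came from livers taken at 16 weeks. All groups received the western diet, so a change with diet could not be read from these livers. The lines were studied separately, and a difference between them cannot be told apart from a difference between the studies.

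Proliferation is rare in adult liver, where nearly all hepatocytes rest outside the cell cycle, and it rises during regeneration and injury. Growth signals raise cyclin D1, which releases the E2F factors from the retinoblastoma proteins, and E2F then switches on the genes of DNA replication. Genes of mitosis come on later, in G2, mainly through a B-MYB, FOXM1 and MuvB complex that reads a short element called the cell cycle genes homology region (CHR), often beside CCAAT boxes bound by NF-Y. The S phase and mitosis genes are therefore 2 waves of the same programme, and the data allow them to be set side by side.

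Promoter sequences were examined because both waves are known to be read through different elements. Windows from 250 bases before to 50 bases after the transcription start were taken from RefSeq (build GRCm38.p6, not the GRCm39 of the counts), and 34 members had windows that could be used (20 mitosis genes with 21 windows and 14 S phase genes with 15, since a gene can have more than 1 start). The motifs searched on both strands were CHR as TTTGAA or TTTAAA, E2F as TTTCCCGC, TTTGGCGC, TTTCGCGC or TTTGCCGC, and CCAAT. E2F matches can overlap one another on opposite strands. A CHR was found in 19 of 21 mitosis windows (90.5%), in 6 of 15 S phase windows (40.0%) and in 27.6% of all 32851 windows of the table. With TTTGAA alone the shares were 76.2% of the mitosis windows, 13.3% of the S phase windows and 17.9% of all windows. An E2F element was found in 9.5% of the mitosis windows, in 40.0% of the S phase windows and in 2.3% of all windows. CCAAT occurred in 85.7% of the mitosis windows, 60.0% of the S phase windows and 37.4% of all windows. CHR and CCAAT stood in the same window in 81.0% of the mitosis windows, 26.7% of the S phase windows and 10.7% of all. These are matches of letters and no test was made on them.

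The promoters of Cdk1, Plk1, Top2a and Cenpf, from the mitosis wave, and of Mcm5 and Mcm6, from the S phase wave, are shown as examples, with the matched motifs in capitals (ATTGG is CCAAT on the other strand). Each stretch begins 190 bases before the RefSeq start and stops before the first base held by an annotated transcript of the gene.
Cdk1 (chr10:69352943-69353102, minus strand): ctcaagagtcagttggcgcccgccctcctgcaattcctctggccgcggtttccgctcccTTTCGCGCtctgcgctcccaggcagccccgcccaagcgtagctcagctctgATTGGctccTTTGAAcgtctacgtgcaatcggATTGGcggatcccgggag
Plk1 (chr7:122159245-122159434, plus strand): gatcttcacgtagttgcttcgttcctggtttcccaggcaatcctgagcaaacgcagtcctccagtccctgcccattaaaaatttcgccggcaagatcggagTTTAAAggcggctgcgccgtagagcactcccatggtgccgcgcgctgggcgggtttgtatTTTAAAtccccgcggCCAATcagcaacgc
Top2a (chr11:99024237-99024379, minus strand): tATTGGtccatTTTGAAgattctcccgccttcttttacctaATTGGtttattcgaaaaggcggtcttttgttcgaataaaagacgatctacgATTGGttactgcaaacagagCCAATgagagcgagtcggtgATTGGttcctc
Cenpf (chr1:189688119-189688276, minus strand): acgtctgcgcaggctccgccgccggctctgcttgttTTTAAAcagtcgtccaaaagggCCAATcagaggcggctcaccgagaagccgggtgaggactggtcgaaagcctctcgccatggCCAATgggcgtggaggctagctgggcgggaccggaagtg
Mcm5 (chr8:75109319-75109508, plus strand): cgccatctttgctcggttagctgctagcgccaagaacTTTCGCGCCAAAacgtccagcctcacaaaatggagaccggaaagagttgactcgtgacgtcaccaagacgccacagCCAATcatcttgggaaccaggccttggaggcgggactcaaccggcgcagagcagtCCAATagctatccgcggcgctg
Mcm6 (chr1:128359780-128359895, minus strand): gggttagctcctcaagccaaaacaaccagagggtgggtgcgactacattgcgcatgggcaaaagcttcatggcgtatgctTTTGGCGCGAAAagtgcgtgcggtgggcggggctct
The 300-base windows counted above are longer than these stretches and hold further matches outside them, among them a CHR farther upstream in Mcm5 and CCAAT boxes nearer the start in Mcm6. Top2a shows the CHR with a row of CCAAT boxes on either strand, its CHR starting 179 bases before the start and its CCAAT boxes at 189, 149, 98, 78 and 58 bases. Plk1 has a CHR at 89 and at 29 bases, and Cenpf has one at 154 bases. Mcm5 and Mcm6 each carry a pair of E2F matches that overlap on opposite strands, at 153 and 149 bases in Mcm5 and at 110 and 106 bases in Mcm6. Cdk1, the kinase that drives entry into mitosis, holds both kinds, an E2F match at 131 bases and a CHR at 71 bases.

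**Figure D1:**
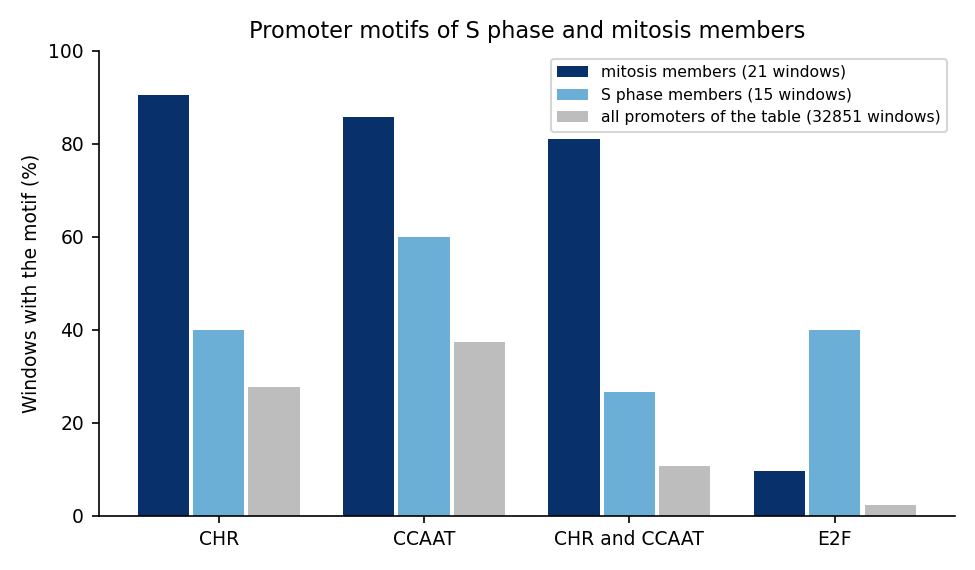
Share of promoter windows (%, vertical axis) that hold each motif, for mitosis members, S phase members and all windows of the RefSeq table. CHR reaches 90.5% of the mitosis windows against 40.0% of the S phase windows, and E2F shows the opposite order, 9.5% against 40.0%.

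Each liver gave between 5332897 and 16961379 reads assigned to genes (median 15879971), and 2 knockout livers lay under 10000000. Levels are given as CPM, the count scaled to a library of 1000000 reads and adjusted by the trimmed mean of M values (TMM), which sets most genes equal between livers. At the median depth, 1 CPM is 15.9 reads, so that many mitosis genes in wild-type livers rest on a handful of reads. In the knockout line Nr1h3 itself (chr2:91014394-91033417, GRCm39) lay at 81.5 to 108 CPM in KO:WT livers, at 48.3 to 65.4 CPM in KO:HET livers and at 25.3 to 31.1 CPM in KO:HOM livers, with a log2 fold change of -1.798 (SE 0.059, adjusted p = 3.3e-27). These are reads over the whole gene, and which part of it the allele removes is not given in the sources used here. In the knock-in line Nr1h3 lay at 82.1 to 96.9 CPM in DN:WT, 86.3 to 99.8 CPM in DN:HET and 68.5 to 77.4 CPM in DN:HOM livers (log2 fold change -0.32, SE 0.06, adjusted p = 1.5e-05).

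The livers dn10, labelled DN:WT, and dn12, labelled DN:HOM, went against their labels. A list of per-liver values from the knock-in experiment could be matched to 22 livers by their counts, and these were the knock-in livers left without a match. Their Nr1h3 levels, 71.3 CPM in dn10 and 86.9 CPM in dn12, lay in the range of the opposite genotype. In dn10 the 26 mitosis members summed to 325 CPM, and in 23 of the 26 it lay above every DN:HOM liver. In dn12 the same sum was 42.7 CPM, and all 26 members lay below every other DN:HOM liver. This sum was nevertheless above the highest of the other DN:WT livers, 39.03 CPM, and 9 of the 26 members lay above every DN:WT liver but dn10. Results therefore rest on 46 livers (7 DN:WT, 8 DN:HET, 7 DN:HOM and 8 in each knockout group), and counts of members, and members whose call depends on these 2 livers, are also given for all 48. The choice followed the missing match, but the same mitosis members show these livers apart, so a gap between genotypes in the 46 livers partly reflects it. Differences were tested with edgeR over the 15711 genes that passed a filter on low counts, and a gene was called at an adjusted p under 0.05. Of the 44 members 43 passed that filter, and Cdc25c did not. Low mitosis members can pass it through the DN:HOM livers, where they were high. Bub1, for example, had medians of 0.148 CPM in DN:WT, 0.226 CPM in DN:HET and 2.17 CPM in DN:HOM livers. Counts of mitosis members higher in DN:HOM may therefore be partly set by the filter.

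In DN:HOM livers the cell cycle genes were higher than in DN:WT livers, and the mitosis genes far more so than the S phase genes. In all, 38 of the 43 members tested rose and 0 fell, against 29.1% of all genes tested that rose and 30% that fell. DESeq2 also called 0 members lower, and 0 were lower at an unadjusted p under 0.05. Counts scaled by library size alone shift the median of all genes up by 0.43 (log2) in this comparison and raise the count to 41. All 25 mitosis members tested rose, with log2 fold changes from 1.54 to 3.66 and a median of 2.85, a count that the filter may favour. Among the 17 S phase members 12 rose, with a range over all 17 from -0.42 to 2.15 and a median of 0.71. The median over all genes tested was -0.01. With all 48 livers 27 members rose, 20 of them mitosis members and 6 S phase members, beside 23% of all genes higher and 25% lower. Estimates of the mitosis members then ran from 0.80 to 1.65, with a median of 1.32, and 5 of them lost their call (Ccnb1, Bub1, Cenpe, Cenpf and Ncapg).

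A simpler reading of the livers gave the same split. For all 26 mitosis members, Cdc25c included, every DN:HOM liver lay above every DN:WT liver, and 4 of the 17 S phase members (Cdt1, Mcm2, Mcm6 and Pcna) did so, while 17.8% of all genes tested showed this order. With dn10 and dn12 under their labels 0 of 26 and 0 of 17 did so, and 0.0512% of all genes. The summed level of the mitosis members was 17.04, 22.94 and 39.03 CPM (lowest, median and highest) in the 7 DN:WT livers and 138, 166 and 233 CPM in the 7 DN:HOM livers. For the S phase members the sums were 96.0, 108 and 137 CPM in DN:WT and 138, 163 and 181 CPM in DN:HOM. The groups do not overlap in either sum, but the S phase groups nearly meet, whereas a wide gap separates the mitosis groups. The mean sum was 6.94 times higher for mitosis and 1.48 times higher for S phase, differences of 152.6 and 52.8 CPM. Members of high level weigh most in such sums. Pcna, the largest part of the S phase sum, had means of 27.7 CPM in DN:WT and 37.9 CPM in DN:HOM. The ratios over all 48 livers were 2.56 and 1.32, on mitosis means of 161 ± 60.0 CPM in DN:HOM and 63.2 ± 106 CPM in DN:WT (SD, n = 8 each).

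**Figure D2:**
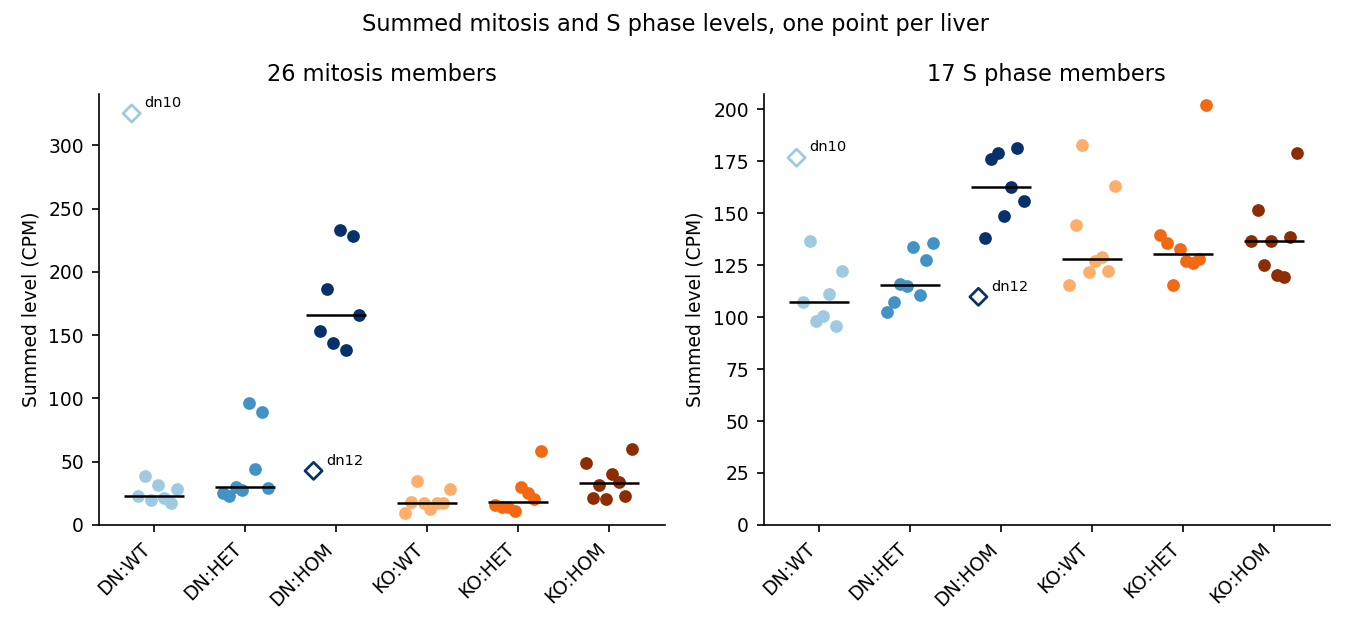
Summed CPM (vertical axes) of the mitosis members and of the S phase members in each liver, by genotype group. Points are livers, bars are group medians without the open diamonds, and the open diamonds are dn10 and dn12. The 7 DN:HOM livers sit between 138 and 233 CPM for mitosis, above all other livers but dn10.

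Per kilobase of exon, S phase transcripts stood above mitosis transcripts in wild-type liver, and the ratio between them, though not the difference, shrank in DN:HOM. The median over members of the group median was 0.916 CPM per kilobase for S phase and 0.163 for mitosis in DN:WT livers. In DN:HOM livers these levels were 1.63 and 0.883 CPM per kilobase. The ratio went from 5.62 to 1.85, and the difference was 0.753 and 0.747 CPM per kilobase. Pcna was the S phase member with the highest level in DN:WT, at 11.4 CPM per kilobase, while the highest mitosis member, Cdc20, reached 0.490 there and 5.25 in DN:HOM.

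Ccnd1 (chr7:144483668-144493662) encodes cyclin D1, the G1 cyclin that growth signals induce. Its level was 15.6, 17.7 and 50.4 CPM in DN:WT livers and 89.8, 108 and 146 CPM in DN:HOM livers. No DN:HOM liver overlapped the wild-type range. The log2 fold change was 2.18 (SE 0.35, 4.53-fold, adjusted p = 7.8e-07), and with all 48 livers it was 1.68 (adjusted p = 0.00034). In KO:HOM livers Ccnd1 lay at 26.7, 40.6 and 60.4 CPM beside 15.95, 29.39 and 59.08 CPM in KO:WT, ranges that overlap almost throughout (log2 fold change 0.38, SE 0.32, adjusted p = 0.441).

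Among the regulators of S phase entry 1 of 3 rose in DN:HOM livers, a share near the 29.1% of all genes that did. Ccne1 and Ccne2 encode the cyclins E that start replication with CDK2, and E2f1 encodes a transcription factor of the replication genes. Ccne2 lay at 0.944, 1.40 and 1.88 CPM in DN:WT and 1.33, 1.85 and 2.53 CPM in DN:HOM livers, overlapping ranges, with a log2 fold change of 0.57 (SE 0.23, adjusted p = 0.0314). That call was lost with all 48 livers (adjusted p = 0.102). Ccne1 lay at 0.444, 1.42 and 3.20 CPM in DN:WT and 1.87, 2.37 and 3.43 CPM in DN:HOM, with a log2 fold change of 0.71 (SE 0.38, adjusted p = 0.102). E2f1 had 4.31, 5.12 and 5.87 CPM and 4.97, 6.22 and 7.44 CPM in the same groups, with a log2 fold change of 0.27 (SE 0.19, adjusted p = 0.236). Both genes overlap between genotypes and neither passed the test, but with library size alone both did (1.15, adjusted p = 0.00779 for Ccne1 and 0.695, adjusted p = 0.00204 for E2f1), which makes 3 of 3. None of the 3 passed in KO:HOM, where Ccne1 stood at 0.41 (SE 0.37, adjusted p = 0.476) and E2f1 at 0.09 (SE 0.18, adjusted p = 0.782).

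Origin licensing genes rose in 8 of 9 cases in DN:HOM livers, beside 29.1% of all genes. Cdc6 and Cdt1 load the MCM2 to MCM7 helicase on origins of replication. Cdt1 was at 2.14, 2.99 and 4.14 CPM in DN:WT and at 4.76, 7.82 and 9.65 CPM in DN:HOM, without overlap (log2 fold change 1.29, SE 0.245, adjusted p = 1.5e-05). Mcm6 (chr1, the promoter shown above) had 3.18, 4.97 and 10.4 CPM in DN:WT and 15.6, 20.1 and 23.7 CPM in DN:HOM, also without overlap (log2 fold change 1.76, SE 0.395, adjusted p = 0.00018). The helicase subunits did not move alike, since Mcm2 rose by 1.09, Mcm5 by 0.98, Mcm3 by 0.76, Mcm4 by 0.71 and Mcm7 by 0.37 on the log2 scale. Cdc6 showed the largest estimate of the role, 2.15 (SE 0.54, adjusted p = 0.00072), on levels of 0 to 1.53 CPM in DN:WT. Cdc45, which turns the loaded helicase into an active one, had a log2 fold change of -0.36 (SE 0.26, adjusted p = 0.234), which turned to 0.07 with library size alone. With all 48 livers, where 23% of all genes rose, Mcm3, Mcm5 and Mcm7 no longer passed the test (adjusted p = 0.0815, 0.142 and 0.141).

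In KO:HOM livers none of the 9 licensing genes passed, beside 11.5% of all genes that rose and 7.87% that fell. Mcm3 lay at 2.76, 3.63 and 12.2 CPM in KO:WT and 4.54, 5.90 and 8.54 CPM in KO:HOM (log2 fold change 0.42, SE 0.24, adjusted p = 0.233), and Mcm7 at 9.74, 13.3 and 17.6 CPM and at 6.27, 11.9 and 15.4 CPM (log2 fold change -0.25, SE 0.12, adjusted p = 0.147). The highest KO:WT value of Mcm2 to Mcm7 came in each case from the same liver, ko23.

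Of 5 genes of DNA synthesis 3 rose in DN:HOM livers, beside 29.1% of all genes, and 1 with all 48, no more than the background of 23%. Pcna (chr2:132091082-132095234) encodes the sliding clamp of the DNA polymerases. It lay at 24.97, 27.49 and 33.23 CPM in DN:WT and 35.0, 38.0 and 40.0 CPM in DN:HOM, a small difference without overlap (1.38-fold, log2 fold change 0.46, SE 0.08, adjusted p = 1.5e-06). Exo1, an exonuclease of mismatch repair, rose by 1.89 on the log2 scale (SE 0.65, adjusted p = 0.0119) from 0, 0.141 and 0.409 CPM in DN:WT to 0.345, 0.587 and 1.40 CPM in DN:HOM. Its ranges overlap, and the call was lost with all 48 livers (adjusted p = 0.214). Tyms, which makes thymidylate, rose by 0.28 (SE 0.12, adjusted p = 0.0404), again lost with all 48 (adjusted p = 0.454). Rrm2, a subunit of ribonucleotide reductase, stood at 0.35 (SE 0.23, adjusted p = 0.187, but 0.79 and adjusted p = 0.00257 with library size alone) and Tk1, thymidine kinase 1, at -0.42 (SE 0.25, adjusted p = 0.144), which became 0.01 with library size alone.

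Rrm2 was the member that fell in the knockout line. Its levels were 4.54, 11.1 and 12.3 CPM in KO:WT and 3.40, 4.91 and 6.00 CPM in KO:HOM. The ranges share the stretch from 4.54 to 6.00 CPM, in which 1 of 8 KO:WT livers lies, and the log2 fold change was -0.99 (SE 0.22, adjusted p = 0.00082), against 7.87% of all genes that fell in that comparison. The call held with all 48 livers (adjusted p = 0.00193) and in every alternative tried, with adjusted p between 0.00013 and 0.00457. Pcna in the knockout line had a log2 fold change of -0.02 (SE 0.07, adjusted p = 0.884), which took the opposite sign under other scalings, and levels of 27.4, 31.3 and 38.9 CPM in KO:WT and 28.1, 31.6 and 33.3 CPM in KO:HOM. Tyms lay at 5.97, 7.17 and 8.00 CPM and at 6.14, 8.25 and 9.39 CPM, with a log2 fold change of 0.14 (SE 0.11, adjusted p = 0.438).

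**Figure D3:**
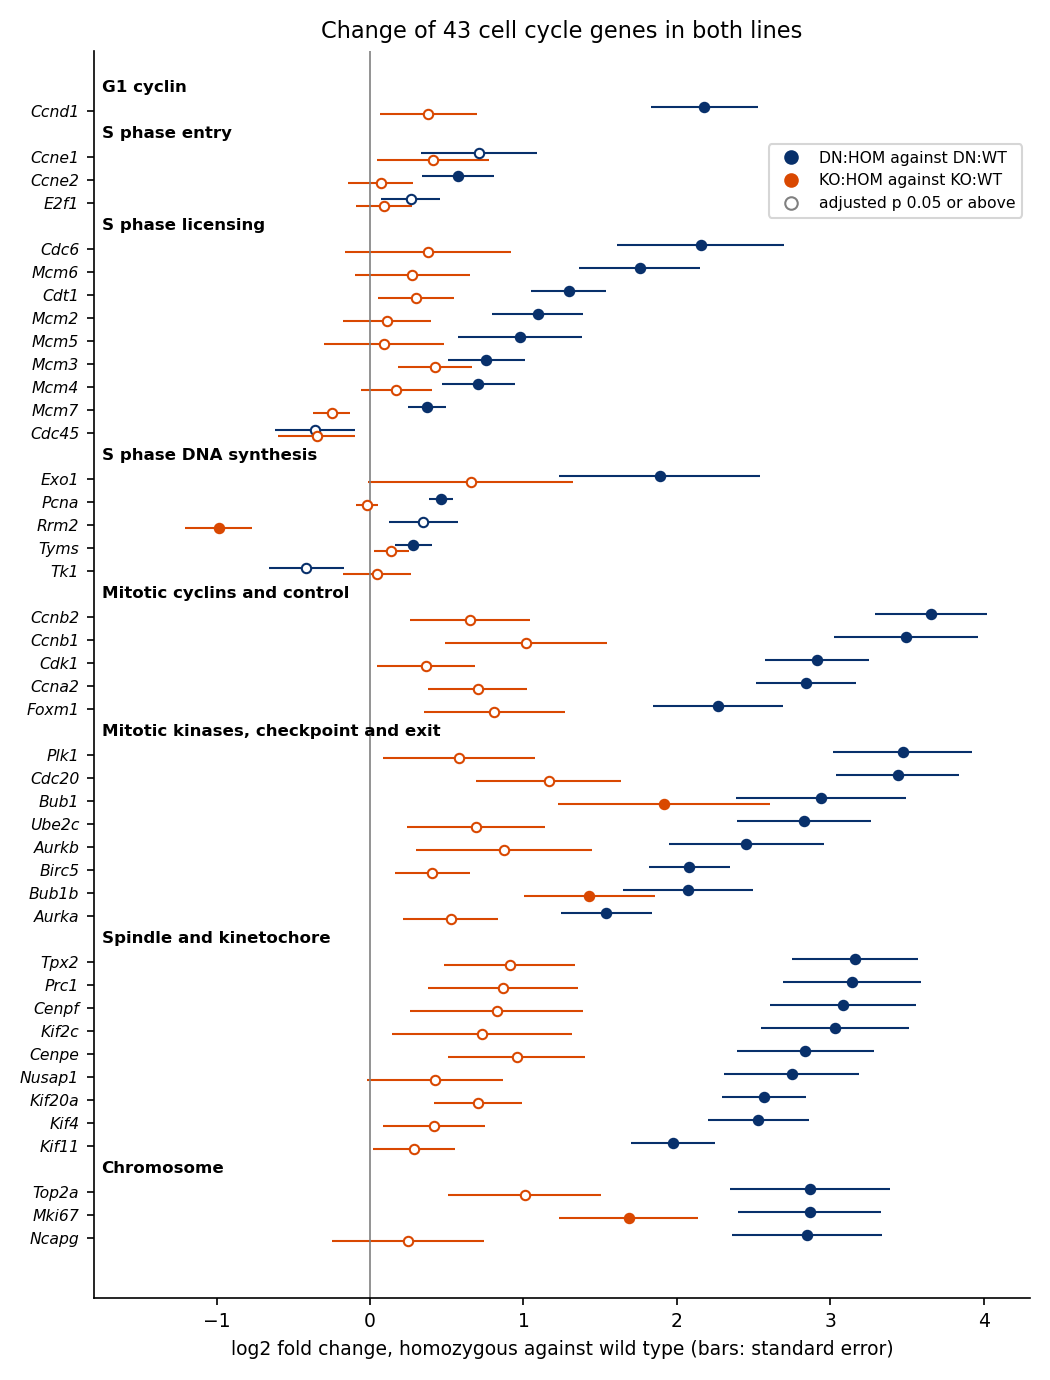
Log2 fold change with its standard error (horizontal axis) of the 43 members tested, homozygous against wild type, in the knock-in line (blue) and the knockout line (orange). Rows are genes grouped by role, and open points have an adjusted p of 0.05 or above. The 25 mitosis members lie between 1.54 and 3.66 in the knock-in line, right of nearly all S phase members.

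Of 6 cyclins and control genes of mitosis 5 were tested, and all 5 rose in DN:HOM livers, beside 29.1% of all genes. Ccnb1 and Ccnb2 encode the B cyclins that activate CDK1, and Ccna2 encodes cyclin A2, which acts in S phase and G2. Ccnb2 was at 0.428, 0.636 and 1.25 CPM in DN:WT livers and at 6.25, 8.30 and 11.2 CPM in DN:HOM livers. Between these groups no value lies in common, and the log2 fold change was 3.66 (SE 0.37, 12.6-fold, adjusted p = 1.9e-11). Ccna2 was at 0.809, 1.28 and 2.40 CPM in DN:WT and 7.30, 10.04 and 11.07 CPM in DN:HOM (log2 fold change 2.84, SE 0.33, adjusted p = 4.9e-10). Ccnb1 rose by 3.50 (SE 0.47, adjusted p = 2.3e-08), Cdk1 by 2.91 (SE 0.34, adjusted p = 7.0e-10) and Foxm1, a transcription factor of the mitosis genes, by 2.27 (SE 0.42, adjusted p = 1.2e-05). Cdc25c, the phosphatase that switches CDK1 on, was too low for the filter, at 0.0681 to 0.267 CPM in DN:WT and 0.443 to 1.89 CPM in DN:HOM. Without the filter its log2 fold change was 3.07 (SE 0.51, adjusted p = 2.6e-06).

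With dn10 and dn12 kept under their labels, the estimate for Ccnb2 fell to 1.49 (adjusted p = 0.0188) and that for Ccnb1 to 1.32, which no longer passed (adjusted p = 0.0592). Ccna2, Cdk1 and Foxm1 stayed called, at 1.42, 1.46 and 1.19. In KO:HOM livers none of the 3 cyclins passed the test, with Ccnb1 at 1.02 (SE 0.53, adjusted p = 0.18), Ccna2 at 0.70 (SE 0.32, adjusted p = 0.124) and Ccnb2 at 0.65 (SE 0.39, adjusted p = 0.257). Ccna2 lay at 0.481, 1.10 and 1.59 CPM in KO:WT and 1.01, 1.72 and 2.81 CPM in KO:HOM, and Ccnb1 at 0, 0.289 and 0.673 CPM and at 0.123, 0.569 and 1.52 CPM. The ranges of both genes overlap.

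Kinases, checkpoint and exit genes rose in 8 of 8 cases in DN:HOM livers, beside 29.1% of all genes. Cdc20 activates the anaphase promoting complex and so ends metaphase, and its level was 0.495, 0.954 and 1.53 CPM in DN:WT and 7.25, 10.2 and 15.9 CPM in DN:HOM (log2 fold change 3.44, SE 0.40, 10.8-fold, adjusted p = 8.8e-10). Birc5, survivin, part of the chromosomal passenger complex, was at 1.08, 1.36 and 2.12 CPM and at 4.07, 6.28 and 8.96 CPM (log2 fold change 2.08, SE 0.26, adjusted p = 5.5e-09). Neither gene had a DN:HOM liver in the wild-type range. Plk1, the polo kinase, rose by 3.47, Bub1 by 2.94, Ube2c by 2.83, Aurkb by 2.45, Bub1b by 2.07 and Aurka by 1.54. Of the 8 genes 7 rose with all 48 livers, beside 23% of all genes. Cdc20 then stood at 1.47 (adjusted p = 0.0213), Plk1 at 1.32 (adjusted p = 0.0484) and Birc5 at 1.11, and Bub1 no longer passed (1.33, adjusted p = 0.0584).

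The checkpoint kinases Bub1 and Bub1b, with Mki67 below, were the 3 members that rose in the knockout line, where 11.5% of all genes tested rose. Bub1b lay at 0.199, 0.659 and 1.17 CPM in KO:WT and at 0.189, 1.24 and 3.98 CPM in KO:HOM (log2 fold change 1.43, SE 0.43, adjusted p = 0.0137). Bub1 lay at 0, 0.0709 and 0.403 CPM in KO:WT and 0, 0.398 and 1.33 CPM in KO:HOM (log2 fold change 1.92, SE 0.69, adjusted p = 0.0435), from a median of 1 read in KO:WT and 6 reads in KO:HOM livers. Its highest KO:HOM value came from ko17, a liver of 5376226 reads, and without the 2 livers under 10000000 reads Bub1 no longer passed (1.70, adjusted p = 0.0835), whereas Bub1b and Mki67 did (adjusted p = 0.0102 and 0.00606). Both pairs of ranges overlap, and neither call held with all 48 livers (adjusted p = 0.0532 for Bub1b and 0.125 for Bub1).

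Spindle and kinetochore genes rose in 9 of 9 cases in DN:HOM livers, by 1.98 for Kif11 to 3.16 for Tpx2, beside 29.1% of all genes that rose. Kif20a, a kinesin of cytokinesis, was at 0.888, 1.34 and 3.07 CPM in DN:WT and 6.41, 8.95 and 12.3 CPM in DN:HOM (log2 fold change 2.57, SE 0.27, adjusted p = 9.4e-11). Tpx2, which builds spindle microtubules around chromosomes, was at 0.424, 0.928 and 1.47 CPM and at 4.74, 7.77 and 10.9 CPM (log2 fold change 3.16, SE 0.41, adjusted p = 8.9e-09). The ranges of both genes stand apart. Prc1, which bundles the midzone of the spindle, rose by 3.14, Cenpf by 3.08, Kif2c by 3.03, Cenpe by 2.84, Nusap1 by 2.75 and Kif4 by 2.53. Of the 9 genes 7 rose with all 48 livers, beside 23% of all genes. Tpx2 then stood at 1.48, Kif20a at 1.19 and Kif11 at 1.02, and Cenpe (1.09, adjusted p = 0.0901) and Cenpf (1.10, adjusted p = 0.11) no longer passed. In KO:HOM none of the 9 passed in the main fit, beside 11.5% of all genes that rose. Kif20a lay at 0.398, 0.904 and 1.37 CPM in KO:WT and 0.760, 1.31 and 2.63 CPM in KO:HOM (log2 fold change 0.71, SE 0.29, adjusted p = 0.0761). With library size alone Kif20a did pass (0.832, adjusted p = 0.0438), and Prc1 passed in another alternative. Cenpe, a kinetochore motor, lay at 0.144, 0.408 and 1.498 CPM and at 0.190, 1.11 and 1.84 CPM (log2 fold change 0.95, SE 0.45, adjusted p = 0.134).

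Mki67 (chr7:135291513-135318299) encodes Ki-67, the coat of mitotic chromosomes that is widely used as a proliferation marker. It was at 2.25, 2.83 and 5.67 CPM in DN:WT livers and at 20.8, 24.8 and 33.8 CPM in DN:HOM livers (log2 fold change 2.87, SE 0.46, 7.29-fold, adjusted p = 1.0e-06). Top2a (chr11:98883769-98915062), the topoisomerase that untangles chromosomes, was at 0.636, 1.69 and 4.34 CPM and at 12.7, 14.5 and 21.6 CPM (log2 fold change 2.87, SE 0.52, adjusted p = 8.0e-06). Ncapg, a condensin subunit, was at 0.204, 0.405 and 0.905 CPM and at 2.37, 3.06 and 4.87 CPM (log2 fold change 2.85, SE 0.49, adjusted p = 2.7e-06). All 3 groups of DN:HOM values clear the wild-type values. With all 48 livers Mki67 and Top2a stayed called at 1.299 and 1.65 (adjusted p = 0.0435 and 0.014), and Ncapg did not (1.10, adjusted p = 0.101).

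Mki67 was the third mitosis gene called in the knockout line. It lay at 0.688, 1.77 and 3.97 CPM in KO:WT and at 2.46, 5.44 and 14.4 CPM in KO:HOM, where 6 of the 8 livers stand above the KO:WT range. The log2 fold change was 1.69 (SE 0.45, adjusted p = 0.00584), with adjusted p = 0.0524 with all 48 livers. Top2a was at 0.344, 1.39 and 6.19 CPM in KO:WT and 0.38, 4.24 and 7.10 CPM in KO:HOM (log2 fold change 1.01, SE 0.50, adjusted p = 0.156), without a call.

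**Figure D4:**
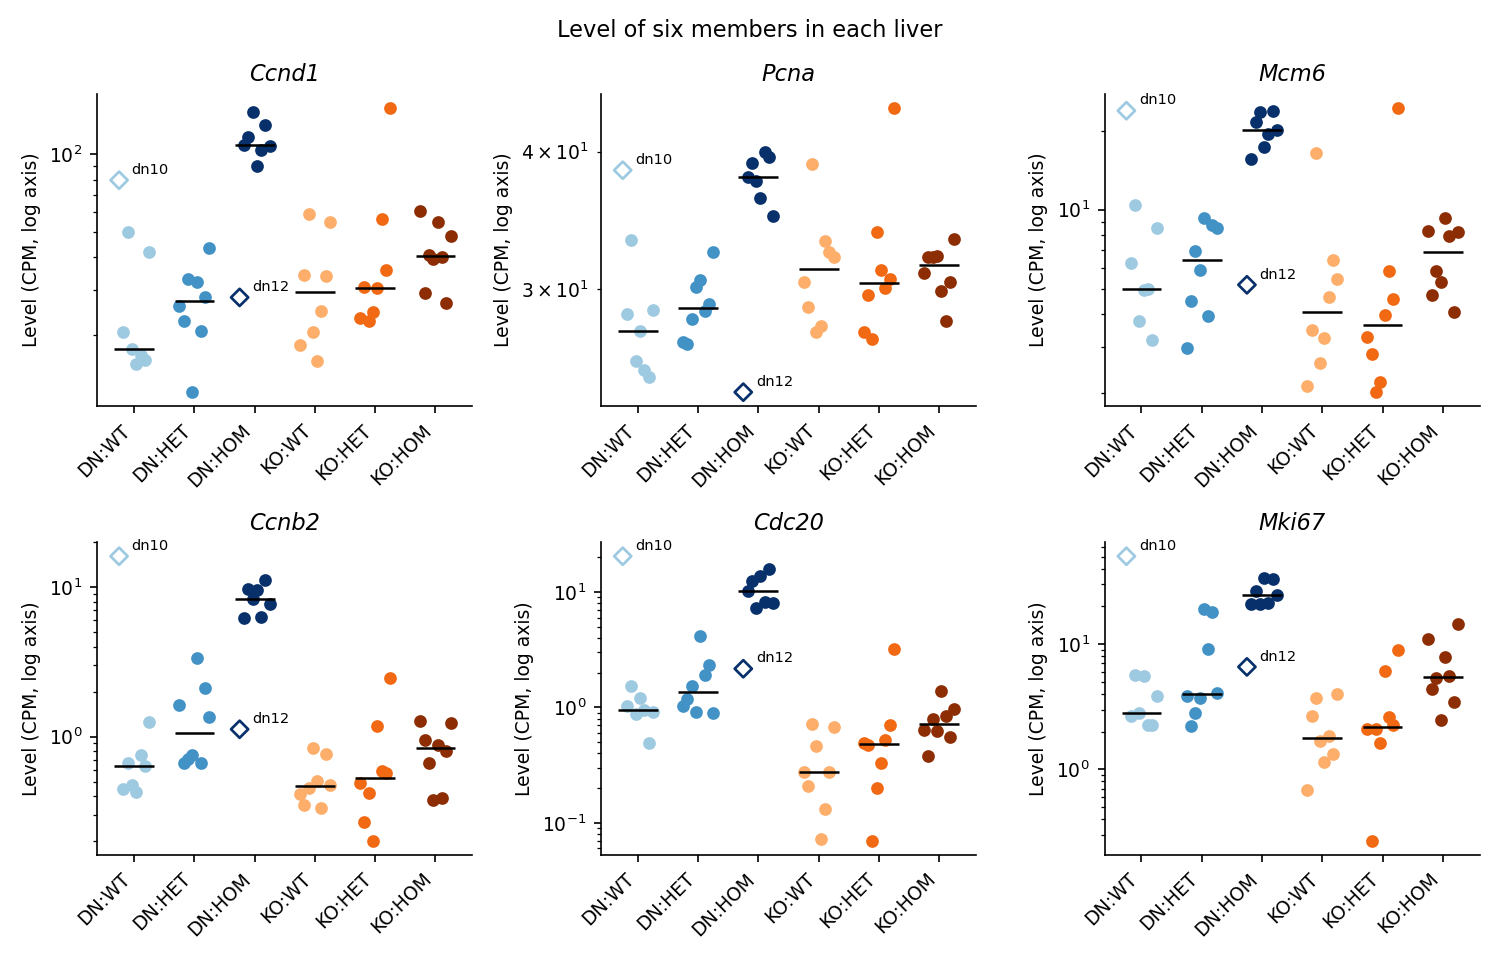
CPM (vertical axes, log scale) of Ccnd1, Pcna, Mcm6, Ccnb2, Cdc20 and Mki67 in each liver by genotype group, with group medians as bars and dn10 and dn12 as open diamonds outside the medians. In each panel the 7 DN:HOM livers lie above the 7 DN:WT livers, and in Pcna by the smallest factor, 1.38-fold.

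For the whole list, KO:HOM against KO:WT gave 3 members higher (Mki67, Bub1 and Bub1b) and 1 lower (Rrm2), beside 11.5% of all genes that rose and 7.87% that fell. A share of 3 in 43 is under the background of this comparison. All 25 mitosis members had a positive estimate, with a median of 0.73, beside a median of -0.02 over all genes tested. Of these members 9 had an unadjusted p under 0.05. The shares of all genes with a positive estimate or with such a p are not given here. S phase members had a median of 0.11, and edgeR called 0 of them higher, DESeq2 0, with 0 higher at an unadjusted p under 0.05. In no member did every KO:HOM liver lie above every KO:WT liver, an order that 2.18% of all genes showed. The summed mitosis level was 9.77, 17.3 and 34.9 CPM in KO:WT and 20.7, 32.8 and 59.9 CPM in KO:HOM, and the mean was 1.79 times higher. The summed S phase level had almost the same mean in both, 138.2 CPM in KO:WT and 138.4 CPM in KO:HOM. Its largest parts were Tk1, with means of 41.0 and 42.8 CPM, and Pcna, with 31.4 and 31.1 CPM. A change in members of lower level shows little in this sum. With all 48 livers 0 members rose by edgeR (3 were higher at an unadjusted p under 0.05) and Rrm2 fell, beside 8.79% of all genes higher and 4.12% lower.

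The difference between the homozygous effects of both lines was tested as its own term. It was called for 25 members, each with the higher log2 fold change in the knock-in line (for Rrm2 because it fell in the knockout line), beside 16.5% of all genes tested with a higher and 18.3% with a lower effect there. Of the 25 mitosis members tested 19 were called, and Foxm1, Aurka, Aurkb, Bub1, Bub1b and Mki67 were not. For Mki67 the difference of log2 fold changes was 1.18 (SE 0.64, adjusted p = 0.148), whereas for Ccnb2 it was 3.005 (SE 0.54, adjusted p = 2.5e-05) and for Cdk1 2.55 (SE 0.46, adjusted p = 2.8e-05). Among S phase members Pcna (0.48, SE 0.10, adjusted p = 0.00032), Rrm2 (1.33, SE 0.31, adjusted p = 0.0008), Mcm7, Cdt1 and Mcm6 were called, and Ccnd1 was called too (1.80, SE 0.46, adjusted p = 0.00206). With dn10 and dn12 under their labels only Rrm2 was called (adjusted p = 0.0145), beside 4.05% of all genes higher and 6.42% lower.

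Heterozygous livers showed no called member in either line. In DN:HET against DN:WT edgeR called 0 of 43, beside 2.23% of all genes called higher and 0.07% lower, and DESeq2 called 0. At an unadjusted p under 0.05 there were 13, all of them mitosis members. The share of all genes at that looser threshold is not given here, so the 13 have no background. In 0.134% of all genes every DN:HET liver lay above every DN:WT liver, and in none of the 44 members. Mitosis members had a median log2 fold change of 0.82, and 24 of 25 estimates were positive, while S phase members had a median of 0.14. With all 48 livers the mitosis median became -0.48, with 0.25% of all genes called higher and 0% lower, since dn10 then counts among DN:WT. In KO:HET against KO:WT edgeR called 0, beside 0.0127% of all genes called higher and 0.00636% lower, and DESeq2 called 0. There 1 member had an unadjusted p under 0.05.

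The spread among DN:HET livers was wider for mitosis than for S phase. Summed mitosis levels were 96.2 CPM in dn22, 89.0 in dn4 and 44.5 in dn29, and between 23.01 and 30.31 CPM in the other 5 livers. The S phase sum ranged from 102 to 136 CPM over the same 8 livers. Its highest values were 136 CPM in dn8, 134 in dn22 and 128 in dn4, with the other 5 livers at 102 to 116 CPM, and dn22 was the highest DN:HET liver in 6 of 17 S phase members. Mki67, itself part of the mitosis sum, was highest in the same livers, at 19.03 CPM in dn22, 18.1 in dn4 and 9.17 in dn29. It lay at 2.20 to 4.06 CPM in the others, where its order differed from that of the sum. In 19 of the 26 mitosis members dn22 was the highest DN:HET liver, and in the remaining 7 it was dn4. Summed levels of 10 macrophage markers were 1147, 1055 and 469 CPM in dn22, dn4 and dn29, beside 170 to 300 CPM in the others. T cell markers stood at 34.03, 29.23 and 15.55 CPM in these 3 livers, beside 3.42 to 8.52 CPM, and neutrophil markers at 44.9, 32.5 and 12.1 CPM, beside 3.03 to 12.7 CPM. Kupffer cell markers were higher too, at 599, 553 and 340 CPM beside 134 to 243 CPM, unlike in DN:HOM livers. Hepatocyte markers summed to 42959 CPM in dn22 and 44874 in dn4, the lowest of the 8 livers, which otherwise held 56991 to 71243 CPM. The part of these cell types in the mitosis values was not tested.

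Against DN:HET livers, DN:HOM livers had 35 members higher, beside 26.1% of all genes tested, and 0 lower, beside 27.8%. DESeq2 also called 0 lower, and 1 member, Cdc45, was lower at an unadjusted p under 0.05 by edgeR. All 25 mitosis members tested and 9 of 17 S phase members were among the 35. This comparison shares its DN:HOM livers with the comparison against DN:WT and is no independent evidence. Every DN:HOM liver stood above every DN:HET liver in 19 of 26 mitosis members and 4 of 17 S phase members, the wide DN:HET range included, beside 11.6% of all genes. With dn12 under its label 1 of 26 (Cdc25c) and 1 of 17 (Cdc6) did, beside 0.794% of all genes. The call count was 29 with all 48 livers, beside 21.5% of all genes higher and 24.9% lower.

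In the knockout line the outlying heterozygote ko9 weighed on one comparison. KO:HOM against KO:HET gave 1 member higher, Cenpe (log2 fold change 1.46, SE 0.48, adjusted p = 0.0395), beside 7.24% of all genes tested that were higher and 3.34% lower. With all 48 livers it was not called (adjusted p = 0.197), beside 3.58% of all genes higher and 1.13% lower. Without ko9, an alternative chosen after seeing the data, 7 were higher (Cdc6, Cdt1, Mcm6, Cdk1, Tpx2, Cenpe and Mki67), with Mki67 at 1.47 (SE 0.45, adjusted p = 0.0227), beside 9.05% of all genes higher and 4.24% lower. In ko9 itself Ccnd1 was at 151 CPM, beside 22.8 to 56.5 CPM in the other 7 KO:HET livers, and it was the highest KO:HET liver in 22 of 26 mitosis members and 13 of 17 S phase members. Among KO:WT livers ko23 was highest in 12 mitosis and 13 S phase members.

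Markers of other cell types moved with genotype as well, and in bulk liver fewer cells of a type and less RNA per cell cannot be told apart. The counts below stand beside 29.1% of all genes that rose and 30% that fell in DN:HOM, and 11.5% and 7.87% in KO:HOM. Of the 11 marker lists, those of B cells, NK cells, erythroid cells and endothelial cells are not described here. Neither are the Kupffer cell markers in KO:HOM. Among 10 macrophage markers 9 rose in DN:HOM and 8 in KO:HOM, and their summed level was 177 to 280 CPM in DN:WT, 1169 to 1854 in DN:HOM, 216 to 361 in KO:WT and 423 to 1385 in KO:HOM. All 5 Kupffer cell markers fell in DN:HOM, to a sum of 1.56 to 3.50 CPM from 131 to 256 CPM in DN:WT, with Timd4 and Marco under 0.1 CPM at the median. Of 6 neutrophil markers 5 were tested and rose in DN:HOM, to 28.8 to 80.2 CPM from 3.34 to 6.47 CPM, and Ly6g was at 0 in every DN:WT liver. All 5 cholangiocyte markers rose in DN:HOM, from a sum of 6.74 to 10.6 CPM to one of 50.6 to 66.4 CPM, and 0 of 5 rose in KO:HOM by edgeR, by DESeq2 or at an unadjusted p under 0.05, where the sum was 5.37 to 12.8 CPM beside 4.06 to 12.4 CPM in KO:WT. Of 6 stellate cell markers 5 rose in DN:HOM and 3 in KO:HOM, while 4 of 6 tested hepatocyte markers fell in each. With library size alone the hepatocyte markers gave 2 higher and 3 lower in DN:HOM and 2 lower in KO:HOM. T cell markers rose in 4 of 8 cases in DN:HOM and 8 of 8 in KO:HOM. The calls over all 48 livers in DN:HOM became 1 of 8 for T cell and 3 of 5 for neutrophil markers, beside 23% of all genes, and those in KO:HOM 1 of 6 for stellate cell and 2 of 6 for hepatocyte markers. The part of any of these cell types in the levels of the cell cycle genes was not tested.

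**Figure D5:**
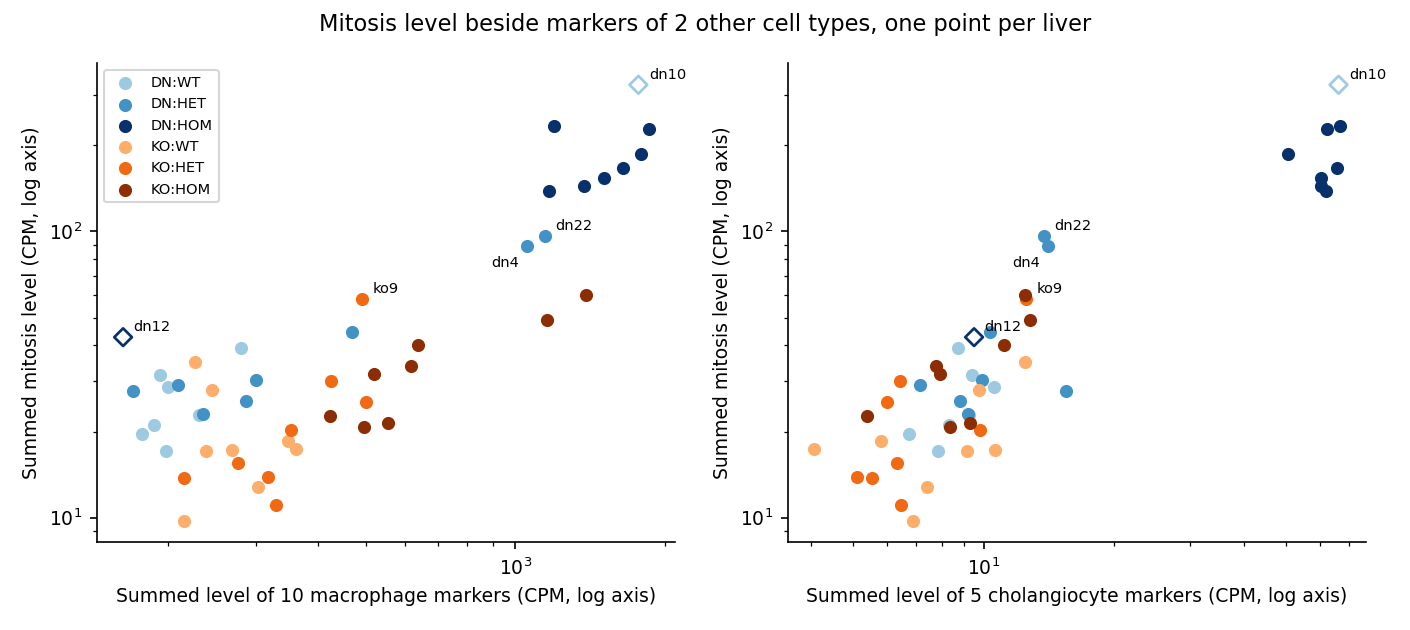
Summed mitosis level of each liver (CPM, vertical axes, log scale) against the summed level of macrophage markers (left) and of cholangiocyte markers (right), both on log scales, coloured by genotype group, with dn10 and dn12 as open diamonds. KO:HOM livers reach up to 1385 CPM of macrophage markers at mitosis sums of at most 59.9 CPM, whereas DN:HOM livers, at 1169 to 1854 CPM, have mitosis sums of 138 to 233 CPM.

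The other genes of the pathway, from lists that hold no member, followed the same order in DN:HOM livers. Of 23 other mitosis genes tested 21 rose and 2 fell, beside 29.1% and 30% of all genes, with a median log2 fold change of 2.07. With all 48 livers 14 rose and 2 fell, beside 23% and 25% of all genes, with a median of 1.09. In KO:HOM 0 of the 23 rose, beside 11.5% of all genes. At an unadjusted p under 0.05 in either direction there were 9, a threshold for which the share of all genes is not given. Nek2 and Pttg1 fell there, near the 7.87% of all genes that did. With library size alone Pttg1 no longer passed in KO:HOM (-0.19, adjusted p = 0.151), and Spc24 (0.46, adjusted p = 0.0177) and Racgap1 (1.36, adjusted p = 0.0435) were higher. The lowest p values belonged to Cdca3 (2.25, SE 0.24), Aspm (2.91, SE 0.34) and Cenpa (0.98, SE 0.12), and the genes that fell were Spc24, of the outer kinetochore (-0.83, SE 0.165, adjusted p = 3.0e-05), and Pttg1, securin (-0.43, SE 0.10, adjusted p = 0.00018), named after their values were seen. With library size alone Pttg1 was at -0.003 (adjusted p = 0.978) and Spc24 at -0.41 (adjusted p = 0.0178). Of 17 other S phase genes tested 9 rose and 1 fell in DN:HOM, with a median of 0.55, beside 29.1% and 30% of all genes. The counts were 8 and 2 with all 48 livers, and 15 and 1 with library size alone. In KO:HOM edgeR called 0 of 17, with 0 at an unadjusted p under 0.05. Prim1, a primase subunit, rose by 1.18 (SE 0.21) and Chaf1b, a histone chaperone, by 1.64 (SE 0.32).

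Mcm10, a replication initiation factor, was the S phase gene that fell. It lay at 62.9, 75.7 and 101 CPM in DN:WT livers and at 15.1, 20.15 and 40.7 CPM in DN:HOM livers, with no overlap (log2 fold change -1.63, SE 0.21, adjusted p = 5.7e-09). The fall held with all 48 livers (log2 fold change -1.22, adjusted p = 0.00028) and with library size alone (-1.21). In KO:HOM its log2 fold change was -0.35 (SE 0.19, adjusted p = 0.191). The DN:WT median of Mcm10 lay far above those of Mcm2 to Mcm6, at 2.86 to 5.40 CPM in the same livers. Whether reads of an overlapping gene add to it was not tested.

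Among 10 genes of the G1 engine 8 rose in DN:HOM, beside 29.1% of all genes, and 5 with all 48 livers, beside 23%. In KO:HOM 2 of the 10 rose, beside 11.5% of all genes. Cdk4, the partner of cyclin D, rose by 0.45 (SE 0.06, adjusted p = 5.9e-08), Cdc25a by 1.16 (SE 0.16) and Ccnd2 by 1.02 (SE 0.15). Ccnd2 rose in KO:HOM too, by 0.73 (SE 0.14, adjusted p = 0.00019), and Skp2 by 0.45 (adjusted p = 0.00954). Brakes of the cycle had 6 of 13 tested higher and 2 lower in DN:HOM, beside 29.1% and 30% of all genes. With library size alone Rbl2 was the only brake that was lower (-0.198, adjusted p = 0.0305). Rb1 (0.224, adjusted p = 0.0385) and E2f4 (0.565, adjusted p = 1.2e-06) were then among those higher. Cdkn2c, the CDK4 and CDK6 inhibitor p18, was at 2.71, 3.71 and 4.67 CPM in DN:WT and 14.5, 17.7 and 20.9 CPM in DN:HOM (log2 fold change 2.29, SE 0.19, adjusted p = 1.7e-13), and in KO:HOM it rose by 0.90 (SE 0.18, adjusted p = 0.00028), again with every KO:HOM liver above every KO:WT liver, though with all 48 livers the knockout estimate no longer passed (adjusted p = 0.0546). Rbl2, p130 of the retinoblastoma family, fell by 0.62 (SE 0.08, adjusted p = 2.0e-08) and Trp53 rose by 0.45 (SE 0.09, adjusted p = 3.9e-05) in DN:HOM. Of 8 tested growth factors and receptors 5 rose and 2 fell in DN:HOM, beside 29.1% and 30% of all genes. Hbegf stood at 2.36 (SE 0.28, adjusted p = 1.6e-09), Tgfa at 0.95 (SE 0.10, adjusted p = 4.6e-11) and Hgf at 1.19 (SE 0.16, adjusted p = 3.0e-08), all with DN:HOM livers clear of DN:WT. The genes that fell were Met (-0.40) and Egf (-0.94), of which Egf no longer passed with all 48 livers (adjusted p = 0.224), and with library size alone 0 of the list fell. Hgf was also higher in KO:HOM (0.73, SE 0.16, adjusted p = 0.00057).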

How the data were processed

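Stranded mRNA libraries from 48 livers were aligned by the authors with STAR 2.5.0a to GRCm39 with Ensembl release 104 genes. The deposited values are raw counts of reads per gene, 1 file per liver, with a column for both strands and one for each strand. The column for the strand of the gene was used here, since it held 6.97 to 8.62 times the reads of the other strand. The 4 summary lines that name no gene were left out, and reads on no gene were 24.0 to 35.0% of the total. No 2 livers held identical counts.

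Counts were tested with edgeR 4.0.16 (R 4.3.3): filterByExpr, TMM scaling, 6 group means and the quasi-likelihood F test, with Benjamini-Hochberg adjustment over all 15711 genes tested. DESeq2, the tool of the study, was an alternative, run here in version 1.42.0. The SE of a log2 fold change was derived from it and the F value. CPM was scaled by TMM over all 48 livers. Per-kilobase values use the union of annotated exons in GENCODE vM39, which held 98.8% of the gene identifiers. On simulated counts for DN:HOM against DN:WT edgeR recovered 68% of log2 changes of 1 and 95% of changes of 2, with 7 of the unchanged genes called. Only 200 of 15711 genes were changed there, as many up as down. Recovery and false calls under the far broader change of the real comparison were not tested.

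The livers dn10 and dn12 were left out of the main set as described. The members, the lists and the tests were chosen with earlier results of these data known. Named in full are Ccnd1, Mki67, Top2a and Pcna and, in each role list, the 2 tested members with the lowest p in each homozygous comparison, and of the other pathway lists up to 3 genes with the lowest p in either. Other members are given by counts and estimates. Alternatives were DESeq2, upper-quartile scaling, unstranded counts, a fit of 1 line or of the compared groups, no filter or one at a mean of 1 CPM, all 48 livers, a threshold of 0.01, and classes without Ccne1, Ccne2 and E2f1 or without Mki67, Top2a and Ccna2. Library size alone, leaving out the 2 livers under 10000000 reads and leaving out ko9 were added after seeing the data.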

Additional observations from a re-analysis of the deposited data

Results flagged for a closer look

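In 36 groups of 8 livers (6 quantities in 6 genotype groups, with all livers under their labels) 9 held a liver far from the rest by Dixon's criterion at the 95% level. For normally distributed values chance gives this in about 1 of 20 groups. The sums hold Mki67, Top2a and Pcna, and several flags fall on the same liver, so the flags are not independent. In DN:WT dn10 stood apart in the mitosis sum, at 325 CPM beside 17.04 to 39.03 CPM in the other livers, in Mki67 at 50.3 CPM beside 2.25 to 5.67 CPM, and in Top2a at 20.65 CPM beside 0.636 to 4.34 CPM. In DN:HOM dn12 stood apart in Pcna, at 24.2 CPM beside 35.0 to 40.0 CPM. In KO:HET 4 flags fell on ko9, with an S phase sum of 202 CPM beside 116 to 140 CPM, a mitosis sum of 58.2 CPM beside 11.1 to 30.1 CPM, Ccnd1 at 151.5 CPM beside 22.8 to 56.5 CPM and Pcna at 43.8 CPM beside 27.03 to 33.84 CPM. In KO:WT ko23 stood apart in Top2a, at 6.19 CPM beside 0.344 to 2.35 CPM.

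The homozygous effect differed between the lines, by the interaction term in edgeR, for 25 members, each with a higher log2 fold change in the knock-in line. Of all genes tested 16.5% had a higher effect there. With dn10 and dn12 under their labels only Rrm2 stayed called (adjusted p = 0.0145), beside 4.05% of all genes. The differences of log2 fold changes were 1.80 for Ccnd1, 0.996 for Cdt1, 1.48 for Mcm6, 0.62 for Mcm7, 0.48 for Pcna and 1.33 for Rrm2. Among cyclins and control genes they were 2.14 for Ccna2, 2.48 for Ccnb1, 3.005 for Ccnb2 and 2.55 for Cdk1, and among kinases, checkpoint and exit genes 2.89 for Plk1, 1.68 for Birc5, 2.27 for Cdc20 and 2.14 for Ube2c. Among spindle and kinetochore genes they were 1.69 for Kif11, 1.86 for Kif20a, 2.30 for Kif2c, 2.12 for Kif4, 2.32 for Nusap1, 2.25 for Tpx2, 2.27 for Prc1, 1.88 for Cenpe and 2.26 for Cenpf, and among chromosome genes 1.86 for Top2a and 2.60 for Ncapg. The lines come from separate studies, and line and study cannot be told apart.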

How the results depend on the processing

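In DN:HOM against DN:WT the count of 38 members higher stayed within 1.5 times under every alternative, at 27 with all 48 livers. The mitosis median log2 fold change moved from 2.85 to 1.32 with all 48 livers, and the S phase median from 0.71 to 1.14 with library size alone, a scaling chosen after seeing the data that shifts the median of all genes by 0.43 in this comparison. In KO:HOM against KO:WT the 3 members higher became 5 with unstranded counts, 0 with all 48 livers and 1 at an adjusted p under 0.01. In KO:HOM against KO:HET the 1 member higher became 0 without the low-count filter, with only the groups compared, with all 48 livers and at an adjusted p under 0.01, and 7 without ko9, and DESeq2 called 1 lower. The 25 members with a called difference between the lines became 1 with all 48 livers. Pcna in KO:HOM against KO:WT changed sign, to 0.011 with upper-quartile scaling and 0.097 with library size alone. The cause of these changes was not tested, beyond what the livers left in or out show. No paired analysis was possible because the numbers in the labels name different animals in each group. Values from the other settings kept their direction and their side of the threshold in 275 cases in each homozygous comparison for the named members, with 17 calls lost and 4 gained in DN:HOM, and 7 lost and 4 gained in KO:HOM. Most of these members were named for a low p in the same comparisons, which partly sets this stability. Over all members the 38 higher in DN:HOM fell to 27 with all 48 livers. Low counts limit Bub1, Cdc6, Exo1 and Cdc25c, among other members, in wild-type livers. In KO:HOM livers they limit Bub1, Cdc25c, Kif2c, Exo1 and Cenpf, among others.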
